A study of Saccharomyces cerevisiae SK1 with 8 samples.

Results

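The large subunit ribosomal protein paralogue pairs are 60 genes of budding yeast, 30 A copies and 30 B copies, out of 6663 genes listed in the count files. They were chosen by their systematic names as the pairs RPL1, RPL2, RPL4, RPL6 to RPL9, RPL11 to RPL24, RPL26, RPL27, RPL31, RPL33 to RPL37 and RPL40. No measured value served as a criterion, but earlier results of these data were known when the choice was made. All 60 were found in all 8 files and all 60 passed the filter on low counts. The series was made to learn the function of a shortened Pus1, a pseudouridine synthase of tRNAs and other RNAs, in growing cells. Polyadenylated RNA was sequenced from SK1 strains of genotype MATa/alpha, 2 biological replicates in each of 4 groups. Every strain, wild type included, carried his3::pTetO7.1-altPus1-3V5::HIS3, the tagged isoform under an inducible promoter, and ura3::pRNR2-TetR-Tup1 together with pTetO7.1-TetR::URA3, which code for the repressors. The deletion strains had pus1::KanMX in addition, and the wild-type strains did not. Cultures received aTC, the inducer anhydrotetracycline, or its solvent DMSO at their dilution in YEPD at 30 °C, and were collected 3 h later.

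Ribosomal proteins of the large subunit bind its RNA and shape the peptidyl transferase centre, the tunnel through which the new protein leaves, and the contacts with the small subunit. An ancient duplication of the yeast genome left most of these proteins encoded by 2 genes, whose products differ little or not at all. In growing yeast their transcripts are among the most abundant, and their promoters are driven together by Rap1, Fhl1 and Ifh1 in response to nutrients. Many of these genes hold an intron, a feature that is rare in yeast, and for several of them splicing is known to be regulated. The Rpl22 protein, for example, is known to hold back splicing of the RPL22B transcript.

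The copies of a pair ranged from nearly identical to clearly different in coding sequence. Over the 30 pairs, identity of the coding sequences ran from 78.9% to 99.4% with a median of 93.5%, in the RefSeq sequences of the S288C assembly R64, looked up by systematic name. The study's strain is SK1, and the sequences shown are not from it. RPL1, whose protein forms the mobile stalk beside the exit site for tRNA, was the most identical pair at 650 of 654 bases. The 90 coding bases of RPL1 with the most differences are shown to let the closeness of the copies be seen. Capitals mark the bases that differ between the copies in each window.
RPL1A (R64, chr16:135790-135879, plus strand): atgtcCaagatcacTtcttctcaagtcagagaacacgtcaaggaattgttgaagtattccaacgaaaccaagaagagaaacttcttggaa
RPL1B (R64, chr7:254641-254730, plus strand): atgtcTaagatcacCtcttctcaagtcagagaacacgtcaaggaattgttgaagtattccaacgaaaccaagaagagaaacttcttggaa
At the other end RPL22, which sits on the outer face near the tunnel exit, had 291 identical bases of 369 aligned. Its window of 90 bases with the most differences held 26 of them.
RPL22A (R64, chr12:263677-263766, plus strand): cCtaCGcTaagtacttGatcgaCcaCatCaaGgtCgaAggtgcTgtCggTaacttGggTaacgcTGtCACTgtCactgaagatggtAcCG
RPL22B (R64, chr6:64428-64517, minus strand): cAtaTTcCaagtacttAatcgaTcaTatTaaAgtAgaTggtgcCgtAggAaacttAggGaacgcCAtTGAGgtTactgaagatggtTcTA
RPL35 (99.2%) and RPL4 (98.9%) followed RPL1, and RPL16 (86.5%) and RPL36 (89.4%) followed RPL22. The deposited counts hold only reads that aligned to 1 place, so near-identical copies lose reads. As a measure, a 50-base stretch of coding sequence counted as unique if the other copy lacked it and R64 held it at most once. Stretches across an exon join, absent from the genome, could thus count as unique. By this measure 19.0% of the stretches of RPL1 were unique. The share was 19.4% in RPL35, 27.3% in RPL4, 39.1% in RPL11 and 43.1% in RPL7, and it was at least 50% in the other 25 pairs. Levels of these 5 pairs are the most exposed to such loss, and their A to B ratios rest on the few stretches that differ.

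Total counts ran from 51331492 to 61960514 per library, and the 60 members took 4.13% to 4.57% of them. Levels below are counts scaled to a common library size (CPM) by the trimmed mean of M values, called TMM. A library's floor, the level of 3 reads scaled by library total alone, was 0.0484 to 0.0584 CPM. The lowest member, RPL33A at 6.52 CPM or more, exceeded it in every library. PUS1 was at 0.0382 and 0.0654 CPM in the deletion with DMSO, against 216 and 221 in wild type with DMSO, 771 and 905 in the deletion with aTC, and 1078 and 1124 in wild type with aTC. A diploid should be low in haploid-specific transcripts. Of 8 such genes, STE3 (3 to 26 reads per library) and MFA1 (14 to 24) were lowest. STE2 (388 to 550) and STE5 (825 to 1253) were highest. Scaled by library total alone, summed CPM of these 8 genes was 31.1 to 34.1 in the 4 wild-type libraries and 39.6 to 43.4 in the 4 deletion libraries. Scaled the same way, summed CPM of 6 meiotic genes was 61.7 to 67.7 in wild type and 69.8 to 76.6 in the deletion. Under that scaling the median log2 change of all genes, deletion averaged over treatments, was 0.070. Whether the sums separate under TMM was not tested. In bulk RNA, more cells of a kind and more RNA per cell cannot be told apart.

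Levels per length differed widely between copies. Per kilobase of the listed span, which includes introns, RPL15A had the highest level at 2967 CPM, followed by RPL4A (2234), RPL2B (1880) and RPL9A (1818). RPL15 is a core protein of the subunit, RPL4 sends a long loop into the exit tunnel, RPL2 lies at the peptidyl transferase centre, and RPL9 lies near the binding site of the translation factors. The lowest were RPL33A (8.92), RPL22A (14.9), RPL36B (15.6) and RPL7B (36.1). Per kilobase of R64 coding sequence the order of the extremes shifted, with RPL15A at 2967 and RPL16B at 2962 on top and RPL33A, RPL36B, RPL22A and RPL15B at 23.3 to 36.5 at the bottom. The median was 1435 CPM per kilobase of coding sequence.

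For 3 of these low copies the reads that could be counted lie mostly outside the coding sequence. A read that touched 2 listed genes was not counted, and 10 of the 60 members overlap another listed gene. RPL22A (YLR061W, chromosome 12, 244054 to 244806 in the files' coordinates, plus strand) shares 372 of its 753 bases with YLR062C, and 12 of its 366 coding bases lie outside that overlap. RPL33A (YPL143W, chromosome 16, 280046 to 280891, plus strand) shares 285 of 846 bases with YPL142C, and 36 or 39 of 324 coding bases lie outside, depending on the end from which the R64 structure is laid on the files' span. RPL36B (YPL249C-A, chromosome 16, 73279 to 73819, minus strand) shares 288 of 541 bases with YPL250W-A, and 19 of 303 coding bases lie outside. By the R64 structure the rest of each span outside the overlap is intron. Values for these 3 genes come mostly from the intron, together with the first exon and, in RPL33A and RPL36B, a few bases of the last exon. They are not values of the whole transcript, and the counts made no use of strand. The first 60 bases of each are shown, with the first exon in capitals, to show how short that exon is.
RPL22A (R64, chr12:263194-263253, plus strand): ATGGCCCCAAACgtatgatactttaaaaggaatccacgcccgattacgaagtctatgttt
RPL33A (R64, chr16:282122-282181, plus strand): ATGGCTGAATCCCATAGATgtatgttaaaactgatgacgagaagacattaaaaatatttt
RPL36B (R64, chr16:76180-76239, minus strand): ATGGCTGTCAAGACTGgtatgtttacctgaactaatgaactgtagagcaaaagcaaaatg
RPL7B overlaps YPL197C and RPL8B overlaps YLL044W, with 375 of 735 and 357 of 771 coding bases outside. In RPL12A and RPL12B 187 of 498 coding bases lie outside an overlap. RPL13B, RPL21A and RPL36A keep 600 of 600, 475 of 483 and 287 of 303. RPL15B, by contrast, overlaps no listed gene, 88.2% of its 50-base stretches occur once in R64, and it stood at 18.7 to 24.8 CPM while RPL15A stood at 1596 to 2141.

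The A copy had more reads in 15 pairs and the B copy in the other 15. The copies differed by more than 5-fold in 7 pairs, by more than 2-fold in 9, and by less than 1.5-fold in 11. RPL15A exceeded RPL15B by 81.2-fold, RPL33B exceeded RPL33A by 48.6-fold, RPL36A exceeded RPL36B by 30.6-fold and RPL7A exceeded RPL7B by 15.1-fold. The RPL33, RPL36 and RPL7 folds rest on a low copy that lost reads to an overlap. So does that of RPL22, where B exceeded A by 9.95-fold. The most equal pairs were RPL20 at 1.01-fold, RPL24 at 1.01-fold, RPL11 at 1.19-fold and RPL19 at 1.20-fold. RPL24 and RPL19 form bridges to the small subunit, and RPL11 binds the small RNA of the central protuberance. In 28 pairs the same copy was the larger in all 8 libraries, the exceptions being RPL20 and RPL24. Over the 8 libraries the log2 ratio within a pair spanned a median of 0.187 and at most 0.55, in RPL22. Dividing by the listed span turned the direction of 1 pair, RPL20.

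**Figure D1:**
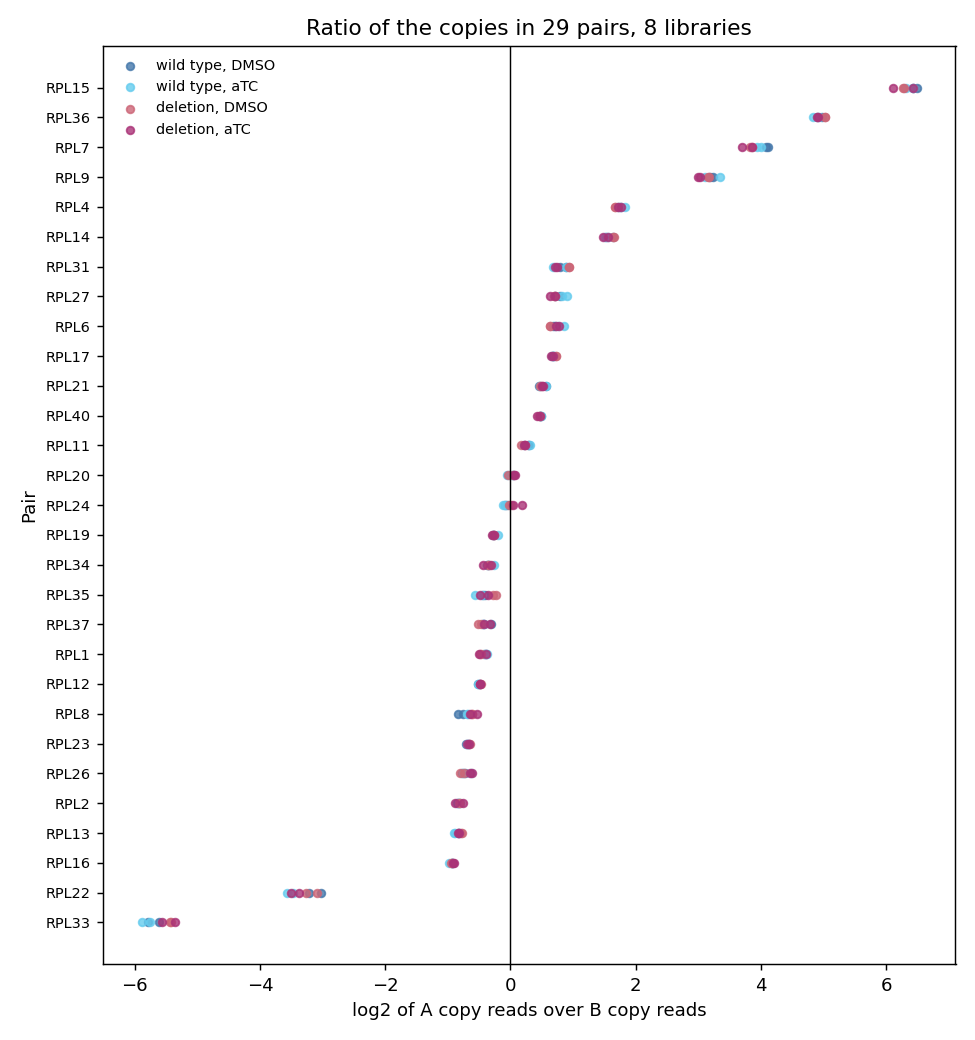
Log2 of A copy reads over B copy reads for 29 of the 30 pairs (rows), with 1 dot per library coloured by group. The 8 dots of a pair lie close together against the spread between pairs, and 27 of these 29 pairs stay on 1 side of 0.

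In cells lacking native PUS1, 22 of the 60 members fell and 3 rose over both treatments. These 25 were called at an edgeR quasi-likelihood adjusted p under 0.05. This is 41.7% of the members, beside 21.2% of all 5932 genes tested. Among all genes 11.2% were called lower and 10.0% higher. DESeq2 called 35 members, beside 23.1% of all genes. The 22 lower members differed by 1.08-fold to 1.24-fold. Of the 60 log2 fold changes 55 were negative, with a median of -0.11, while the median over all genes was 0.0035. In 23 members all 4 deletion libraries lay below all 4 wild-type libraries, as they did in 9.17% of all genes, and in 3 members they lay above, against 11.0%. Both copies were called in 6 pairs, 1 copy in 13 and neither in 11. In 26 pairs both changes were negative, and among the called genes 11 were A copies and 14 B copies.

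These calls depended on single libraries and on scaling. The number called was 1 without replicate 2 of the deletion with DMSO, beside 1.66% of all genes, and 4 without its replicate 1, beside 4.77%. It was 7 without replicate 1 of wild type with aTC, beside 13.1%, and 8 without replicate 2 of wild type with DMSO, beside 12.6%. These 4 counts are 1.67%, 6.67%, 11.7% and 13.3% of the members, near the share of all genes in the same fit. The number was 16 without replicate 1 of the deletion with aTC, beside 9.34%, and 15 without its replicate 2, beside 20.4%. It was 19 without replicate 1 of wild type with DMSO, beside 13.1%, and 29 without replicate 2 of wild type with aTC, beside 29.3%. With libraries scaled by their total alone it was 9 (15.0%), of which 4 were higher and 5 lower. That is a smaller share than the 27.3% of all genes called under that scaling, 22.6% higher and 4.69% lower. That scaling moved the median of all genes to 0.070 and of the members to -0.046. The members' median lay 0.12 below that of all genes under either scaling. A change of scaling moves the log2 changes of all genes by nearly the same amount. This gap could therefore hardly differ between scalings and is no test of the result. Under TMM the median log2 change was 0.27 in the 8 haploid-specific genes and 0.086 in the 6 meiotic genes. Their part in the members' lower median was not tested. Of the 8 haploid-specific genes 8 had a positive log2 fold change and 2 were called higher. Of the 6 meiotic genes 5 were positive and 1 was called higher, beside 10.0% of all genes called higher.

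**Figure D2:**
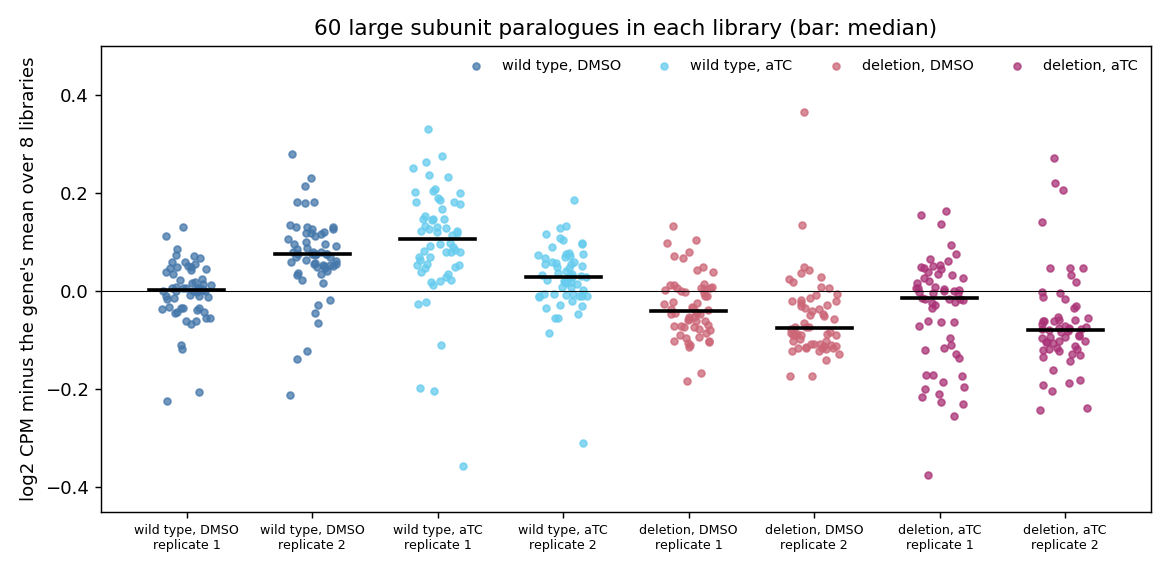
Log2 CPM of each of the 60 members (dots) in each library, relative to that gene's mean over the 8 libraries, with the median as a bar. The medians run from 0.0024 to 0.11 in the 4 wild-type libraries and from -0.079 to -0.015 in the 4 deletion libraries, and the dots of the 2 genotypes overlap.

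The members that fell are taken first, by the place of their proteins in the subunit, beginning at the exit tunnel. Those that rose, among them both copies of RPL22 near the tunnel exit, follow further below. RPL35B (YDL136W, chromosome 4, 232228 to 232995, plus strand), whose protein rims the exit and docks targeting factors, had 275 and 318 CPM in wild type with DMSO, 329 and 288 in wild type with aTC, 261 and 256 in the deletion with DMSO and 236 and 246 in the deletion with aTC. Its deletion libraries all lay below its wild-type libraries. The change was -0.28 on the log2 scale (SE 0.056, edgeR adjusted p = 0.0105), and the adjusted p was 0.064 without replicate 2 of the deletion with DMSO. RPL31B (YLR406C, chromosome 12, 886958 to 887648, minus strand), at the same rim, had 452 to 519 CPM in the 4 wild-type libraries and 415 to 437 in the 4 deletion libraries. The groups did not overlap, and the change was -0.21 (SE 0.041, edgeR adjusted p = 0.00986). RPL4A (YBR031W, chromosome 2, 282703 to 283791, plus strand) had 2619 and 2512 CPM in wild type with DMSO, 2749 and 2555 in wild type with aTC, 2158 and 2149.6 in the deletion with DMSO and 2489 and 2231 in the deletion with aTC. It was lowest in the deletion with DMSO, no deletion library reached the wild-type range, and the change was -0.21 (SE 0.048, edgeR adjusted p = 0.0145). RPL31B and RPL4A lost their call without either library of the deletion with DMSO, at adjusted p of 0.050 to 0.076. RPL4B also fell, by 0.15 (edgeR adjusted p = 0.0423, kept in 1 of the 8 fits that left out 1 library), while RPL31A (-0.19) and RPL35A (-0.15) were not called. Of RPL17 and RPL26, also at the tunnel, RPL17B fell by 0.11 (edgeR adjusted p = 0.0445, kept in 0 of the 8 fits that left out 1 library), and RPL17A (-0.097), RPL26A (-0.081) and RPL26B (-0.095) were not called.

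Both copies of RPL24 and of RPL19, which carry bridges to the small subunit, and both copies of RPL2 fell. RPL24B (YGR148C, chromosome 7, 780926 to 781792, minus strand) had 923 ± 57.1 CPM (SD, n = 2) in wild type with DMSO and 974 ± 76.7 with aTC, against 828 ± 10.6 in the deletion with DMSO and 702 ± 66.9 with aTC. By library it stood at 883 and 963, at 1028 and 919.8, at 835 and 820.0, and at 654 and 749 in that order, so all deletion libraries were below all wild-type libraries and the deletion with aTC was lowest. The change was -0.32 (1.24-fold, SE 0.055, edgeR adjusted p = 0.00724) and the adjusted p was 0.054 without replicate 2 of the deletion with DMSO. RPL24A fell by 0.17 (edgeR adjusted p = 0.0314). RPL19A had 928 to 1038 CPM in wild type and 781 to 915 in the deletion and fell by 0.18 (edgeR adjusted p = 0.0228), and RPL19B fell by 0.17. RPL2A had 1256 to 1332 CPM in wild type and 1139.7 to 1211 in the deletion and fell by 0.14 (edgeR adjusted p = 0.0229), and RPL2B fell by 0.15. In RPL19A and in RPL2A the genotypes did not overlap. When each of the 8 libraries was left out in turn, RPL19A and RPL24A kept their calls in 3 fits, RPL2A in 4, and RPL19B and RPL2B in 1.

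RPL13B and RPL36A, whose proteins join the subunit early in its assembly, fell too. RPL13B had 1190.3 to 1349 CPM in wild type and 1091 to 1132 in the deletion, a change of -0.17 (edgeR adjusted p = 0.0162). RPL36A had 256 and 301 CPM in wild type with DMSO, 301 and 261 with aTC, 254 and 252 in the deletion with DMSO and 222 and 217 with aTC. Its highest deletion library was next to its lowest wild-type library, with no overlap, and it changed by -0.25 (SE 0.058, edgeR adjusted p = 0.0167). RPL36B, whose counts lie mostly in the intron, was at 8.11 to 10.5 CPM in wild type and 7.33 to 7.78 in the deletion and fell by 0.31 (SE 0.090, edgeR adjusted p = 0.0343). RPL15A, the most abundant member per length, fell by 0.20 (edgeR adjusted p = 0.0246), with 1802 to 2141 CPM in wild type and 1596 to 1824 in the deletion, which overlap. Of the 8 fits that left out 1 library each, RPL36A kept its call in 5, RPL13B in 4, RPL15A in 3 and RPL36B in 2. The other members that fell were RPL23B, RPL8B, RPL40A, RPL27A, RPL6A, RPL17B, RPL33B and RPL11A, by 0.11 to 0.17. RPL17B kept its call in 0 of the 8 fits that left out 1 library, RPL27A in 3, and each of the other 6 in 2.

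Against this, both copies of RPL22 and RPL7B rose. RPL22B (YFL034C-A, chromosome 6, 78259 to 78948, minus strand) had 95.7 and 100.4 CPM in wild type with DMSO, 96.3 and 106 with aTC, 117 and 121 in the deletion with DMSO and 124 and 129 with aTC. Every deletion library was above every wild-type library. The rise was 1.23-fold (log2 0.30, SE 0.044, edgeR adjusted p = 0.00591), and RPL22B was the only member called in all 8 fits that left out 1 library. RPL22A had 11.8 and 10.8 CPM in wild type with DMSO, 8.65 and 8.94 with aTC, 12.2 and 14.3 in the deletion with DMSO and 11.8 and 11.3 with aTC. It was lowest in wild type with aTC, and the genotypes overlapped between the deletion with aTC and wild type with DMSO. Its counts, mostly from the intron, gave a rise of 0.32 (SE 0.069, edgeR adjusted p = 0.0131), with an adjusted p of 0.075 without replicate 2 of the deletion with DMSO. RPL7B (YPL198W, chromosome 16, 170771 to 172321, plus strand), whose protein also joins early, had 47.8 to 55.6 CPM in wild type and 57.5 to 64.4 in the deletion. Its groups did not overlap, and it rose by 0.20 (SE 0.054, edgeR adjusted p = 0.0242), keeping the call in 3 of the 8 fits that left out 1 library. RPL33A had 6.52 to 7.37 CPM in wild type and 7.56 to 9.07 in the deletion, and its change of 0.20 was not called (edgeR adjusted p = 0.0866).

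**Figure D3:**
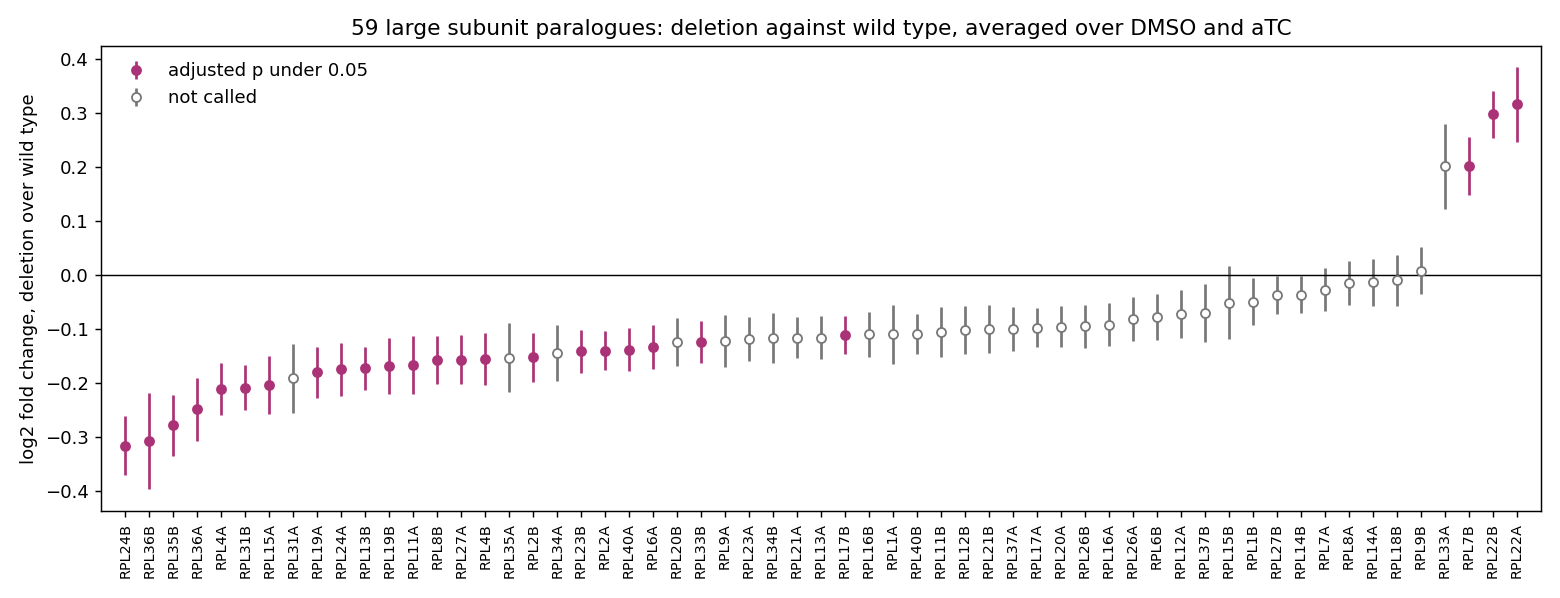
Log2 fold change of 59 of the 60 members between deletion and wild type, averaged over DMSO and aTC, with its standard error. Filled points are the 25 called members, from RPL24B at -0.32 to RPL22A at 0.32, and 54 of these 59 lie below 0.

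By gene structure, the 44 members with an intron inside the R64 coding sequence had a median log2 change of -0.11 and the 16 without one of -0.12. RPL24A and RPL24B are among those without, although their listed spans of 926 and 867 bases exceed their 468 coding bases. Over the 60 members Spearman's rho between the change and the mean CPM per kilobase of R64 coding sequence was -0.38. With coding length it was 0.066 and with intron length 0.082, as descriptions over genes that share the same 8 libraries. For RPL22A, RPL33A and RPL36B that level divides mostly intron reads by coding length.

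Taken by treatment, the genotypes gave fewer calls. With aTC 13 members were called between deletion and wild type, 2 higher and 11 lower, beside 13.6% of all genes (5.5% higher, 8.13% lower). The median change was -0.12, and DESeq2 called 20 members, beside 17.6%. RPL24B changed most among them, by -0.47 (1.39-fold, SE 0.078, edgeR adjusted p = 0.015), and RPL22B (0.32) and RPL22A (0.40) were the higher ones. The other lower ones were RPL35B, RPL36A, RPL19A, RPL31B, RPL15A, RPL24A, RPL13B, RPL19B, RPL27A and RPL34A, at -0.36 to -0.20. By edgeR 0 were called without replicate 1 of wild type with aTC, beside 1.06% of all genes, and 0 without replicate 1 of the deletion with aTC, beside 0.0503%. Without replicate 1 and replicate 2 of the deletion with DMSO 4 and 3 were called, beside 5.57% and 3.69%, and without replicate 2 of the deletion with aTC 7 (11.7%), beside 12.3%. Without replicate 2 of wild type with aTC 19 were called, beside 23.6%. Scaling by library total called 2 higher and 5 lower, together 11.7% of the members, beside 15.1% of all genes. With DMSO edgeR called 0 members, beside 0.219% of all genes, and DESeq2 called 2, beside 2.14%. At an unadjusted edgeR p under 0.05, 3 members were higher, beside 8.85% of all genes, and 17 lower, beside 7.67%. The median change with DMSO was -0.10, and 54 of 60 changes were negative with either treatment.

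With aTC against DMSO, which switches the shortened isoform on, 1 member was called. In the deletion edgeR called 0 of 60, beside 0.506% of all genes, and DESeq2 called 3, beside 6.8%. At an unadjusted edgeR p under 0.05, 3 members were higher there, beside 10.5% of all genes, and 4 lower, beside 12.1%. In wild type edgeR called 0, beside 0.371%, and DESeq2 called 0, beside 0.834%. There 2 members were higher at an unadjusted edgeR p under 0.05, beside 2.07%, and 1 was lower, beside 2.92%. The difference between these responses was called for 0 members by edgeR, beside 0.0169% of all genes, and for 0 by DESeq2, beside 0.016%. At an unadjusted edgeR p under 0.05 it was positive for 0 members, beside 2.06%, and negative for 2, beside 5.18%. Averaged over genotypes edgeR called 1 member, beside 1.31% of all genes, and DESeq2 called 3, beside 4.04%. In 2 members all 4 libraries with aTC lay above all 4 with DMSO, as in 3.89% of all genes, and in 0 they lay below, against 2.6%. The member called by edgeR was RPL18B (YNL301C, chromosome 14, 54633 to 55625, minus strand), which had 190.4 and 169 CPM in wild type with DMSO, 207 and 222 with aTC, 172 and 181 in the deletion with DMSO and 215 and 216 with aTC. Both genotypes were higher with aTC, without overlap over the 8 libraries, by 1.21-fold (log2 0.27, SE 0.047, edgeR adjusted p = 0.0196). The adjusted p rose to 0.056 without replicate 2 of wild type with DMSO, and to 0.081 to 0.17 without any 1 of the 4 deletion libraries. No strain without the construct was analysed here, so the inducer and the isoform cannot be told apart.

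The balance of the copies was called different between genotypes in 4 of 30 pairs. This is near the share of all duplicated ribosomal protein pairs, 7 of 57 or 12.3%. The 57, which include these 30, were tested together by limma on the log2 ratio of A to B counts. In RPL7 there were 16.9 to 17.3 RPL7A reads per RPL7B read in wild type with DMSO and 15.4 to 16.1 with aTC, against 14.1 to 14.5 in the deletion with DMSO and 13.0 to 14.4 with aTC. The genotypes did not overlap, and the log2 ratio fell by 0.23 (SE 0.039, limma adjusted p = 0.0118). RPL7B rose while RPL7A, at 826 to 902 CPM in wild type and 834 to 846 in the deletion, was not called. In RPL33 there were 0.0169 to 0.0205 A reads per B read in wild type and 0.0212 to 0.0245 in the deletion, again without overlap, and the log2 ratio rose by 0.32 (SE 0.061, limma adjusted p = 0.0176). RPL33B fell, and the A copy is represented mostly by its intron. In RPL8 the ratio was 0.562 to 0.622 in wild type and 0.641 to 0.694 in the deletion, a log2 rise of 0.14 (SE 0.033, limma adjusted p = 0.0368). RPL8B has 357 of its 771 coding bases outside an overlap and RPL7B 375 of 735, so both ratios set part of B against A. RPL24 went from 0.916 to 0.958 in wild type to 0.982 to 1.14 in the deletion, a log2 rise of 0.14 (SE 0.035, limma adjusted p = 0.0397). Both RPL24 copies fell and RPL24B fell further. The calls of RPL8 and RPL24 were less stable than those of RPL7 and RPL33 when 1 library was left out. The 4 pairs were reduced to 0 without replicate 1 of wild type with aTC, beside 3.51% of the 57 pairs, and to 0 without replicate 2 of the deletion with DMSO, beside 0.0%. They were reduced to 2 without replicate 1 of either DMSO group, beside 7.02% (wild type) and 8.77% (deletion), and rose to 6 without replicate 1 of the deletion with aTC, beside 15.8%. An exact permutation test of 4 against 4 libraries, two-sided and unadjusted, gave its smallest possible p of 0.0286 in 5 of the 30 pairs (16.7%), these 4 and RPL12, beside 15.8% of the 57 pairs.

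The coding windows in which RPL7 and RPL24 differ most show what tells their reads apart, with differing bases in capitals. RPL7 differs at 13 and RPL24 at 12 of the 90 bases.
RPL7A (R64, chr7:365433-365522, minus strand): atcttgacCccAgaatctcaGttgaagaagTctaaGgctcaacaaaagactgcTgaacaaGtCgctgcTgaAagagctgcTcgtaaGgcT
RPL7B (R64, chr16:173576-173665, plus strand): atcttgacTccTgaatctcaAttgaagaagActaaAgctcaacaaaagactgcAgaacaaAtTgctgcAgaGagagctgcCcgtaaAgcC
RPL24A (R64, chr7:437521-437610, minus strand): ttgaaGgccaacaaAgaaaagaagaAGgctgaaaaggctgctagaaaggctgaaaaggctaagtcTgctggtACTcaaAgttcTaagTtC
RPL24B (R64, chr7:787366-787455, minus strand): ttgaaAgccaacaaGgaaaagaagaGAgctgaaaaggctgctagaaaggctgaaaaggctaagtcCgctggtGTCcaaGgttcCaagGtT
Of the 50-base stretches of RPL24, 95.9% were unique by the measure given above. Its ratio is thus less exposed to lost reads than that of RPL7 at 43.1%.

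With DMSO alone the ratio of 1 member pair was called between genotypes, RPL7 (-0.26, limma adjusted p = 0.0433), beside 5.26% of the 57 pairs. With aTC alone limma called 0 member pairs, beside 0.0% of the 57, and 5 of the 30 had an unadjusted p under 0.05, beside 8 of all 57. Averaged over genotypes, aTC changed the ratio of 0 member pairs by limma, beside 0.0% of the 57 pairs, with 10 of 30 at an unadjusted p under 0.05, beside 29.8% of the 57. The exact permutation test gave 3 pairs (10.0%) at its smallest p, beside 5.26% of the 57, RPL6 and RPL22 among them. RPL22 had 0.107 to 0.123 A reads per B read in wild type with DMSO and 0.104 to 0.118 in the deletion with DMSO, against 0.0842 to 0.0900 in wild type with aTC and 0.0883 to 0.0959 in the deletion with aTC. The treatments did not overlap, and the log2 ratio differed by -0.33 (SE 0.061, limma adjusted p = 0.0565), which was not called. The A copy of RPL22 is represented mostly by its intron, so this is not a ratio of whole transcripts. Without replicate 1 of wild type with aTC 4 pairs were called, beside 7.02% of the 57, and without replicate 1 of wild type with DMSO 2, beside 5.26%. Without replicate 2 of wild type with DMSO or replicate 1 of the deletion with DMSO 1 each was called, beside 3.51% and 1.75%. Limma called 0 member pairs within either genotype, beside 0.0% of the 57 pairs each, with 9 in the deletion and 3 in wild type at an unadjusted p under 0.05, beside 29.8% and 7.02% of the 57. The difference between those responses was called for 0 pairs, beside 0.0%, and 0 had an unadjusted p under 0.05, beside 3.51%.

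**Figure D4:**
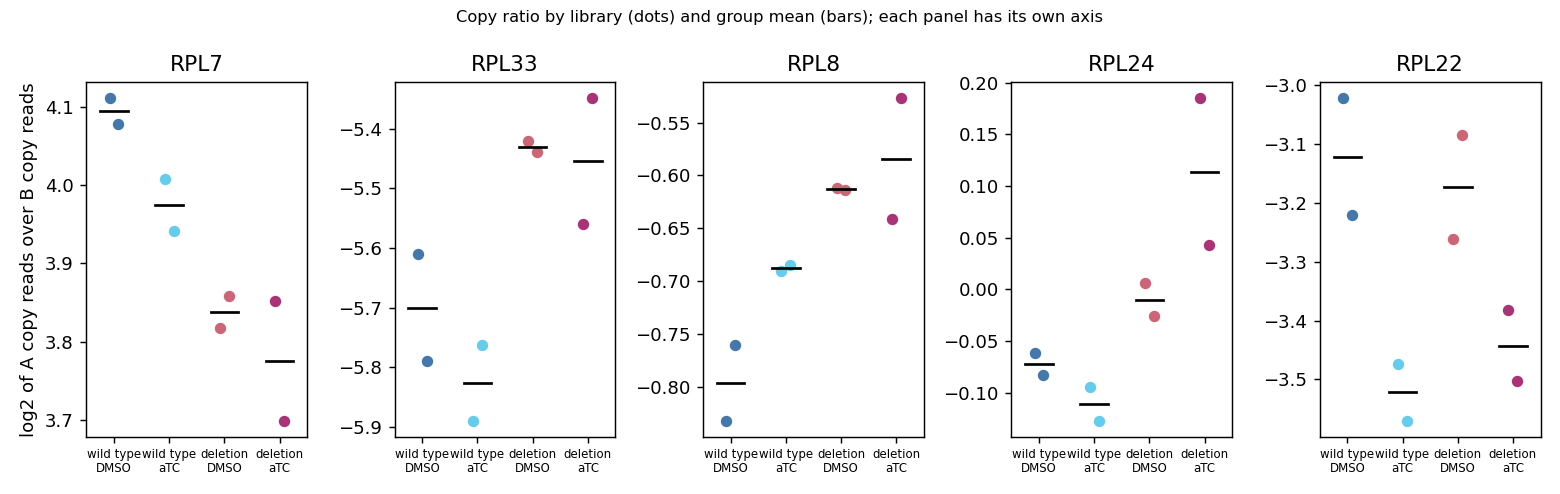
Log2 of A copy reads over B copy reads in the 4 pairs called between genotypes and in RPL22, with 1 dot per library, the group mean as a bar and an axis per panel. In RPL7, RPL33, RPL8 and RPL24 the deletion and wild-type libraries do not overlap, and in RPL22 the aTC and DMSO libraries do not. Reads of RPL33A and RPL22A come mostly from their introns.

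Other genes of the same machinery are given for the deletion averaged over treatments. In that comparison edgeR called 11.2% of all genes lower and 10.0% higher. Of the 48 small subunit paralogues 6 fell and 0 rose by edgeR, with a median of -0.090. Of the 6 genes of RPL41, RPL42 and RPL43 edgeR called 0. At an unadjusted edgeR p under 0.05, 1 of these was higher and 2 were lower, beside 1073 and 1137 of all 5932 genes. Of 11 single-copy large subunit genes and RPP0, counted together, 2 fell and 1 rose. RPP0, the base of the stalk that recruits translation factors, changed by -0.27 (edgeR adjusted p = 0.0105), RPL38 by -0.18 (0.0118) and RPL28 by 0.24 (0.00635). Of 6 regulators of these promoters the coactivator IFH1 fell by 0.33 (edgeR adjusted p = 0.00591) and FHL1, which brings it to the promoters, by 0.16 (0.0374). CRF1, the corepressor that competes with Ifh1, rose by 0.19 (edgeR adjusted p = 0.0423), and RAP1, SFP1 and HMO1 were not called. By treatment, edgeR called 0 of these 6 regulators with DMSO, beside 0.219% of all genes, and 2 with aTC, both lower, beside 13.6%. The lowest change among the 6 was -0.12 with DMSO and -0.54 with aTC. Of 5 dedicated chaperones ACL4, which escorts new Rpl4, fell by 0.32 (edgeR adjusted p = 0.0095) and RRB1, which escorts Rpl3, by 0.17 (0.036). No test of a relation between these genes and the members was made.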

How the data were processed

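RNA-seq values were taken as deposited: raw counts per gene that the authors made with featureCounts 2.0.1 from uniquely aligned reads, without a strand option and without reads touching more than 1 gene, per the file headers. Reads were aligned with STAR, per the submitters' processing notes; its version and the genome build are not given in the sources used here. The listed Length served only to give levels per kilobase. Symbols and sequences came from RefSeq R64, which matched 5931 of 6663 identifiers, and all 60 members.

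All 8 libraries were fitted together in R 4.3.3 with edgeR 4.0.16 (TMM factors 0.963 to 1.05, default filter, 1 mean per group, quasi-likelihood F test, 4 residual degrees of freedom). Of the genes listed, 5932 were tested and 731 filtered out. P-values were adjusted by Benjamini-Hochberg over these 5932, with calls at 0.05. The biological coefficient of variation was 5.44%. Copy ratios, log2((A + 0.5)/(B + 0.5)), were tested in limma 3.58.1 over 57 duplicated ribosomal protein pairs. The SE of an edgeR log2 change was its size over the square root of its F. Both scripts were tested on simulated data. Alternatives were DESeq2 1.42.0, other scalings, no filter, a replicate block, only the 4 libraries compared, a pseudocount of 5 and each library left out.

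Members and gene lists were chosen with earlier results of these data known. Genes described singly were up to 12 called members by smallest adjusted p, the 4 highest and 4 lowest per kilobase, the 4 most unequal and 4 most equal pairs, the pairs with a changed ratio, the 3 most and 3 least identical pairs, and called members of the other lists; the remaining members are named with a change only where they passed the test or complete a pair. RPL33A, RPL15B, RPL12, RPL6 and the RPL22 ratio were added after their values were seen. The value of 1 member is counted but not reported singly here. Replicates differed by 8.37 to 34.0 times their sampling variance per degree of freedom and correlated at 0.998 to 0.999 on log2 CPM, so none was a repeat of another. Floors and counting limits cover counting error only, since reads carry no molecular identifiers.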

Additional observations from a re-analysis of the deposited data

How the results depend on the processing

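Members called between deletion and wild type over both treatments numbered 25 (edgeR), 35 with DESeq2, 28 with relative log scaling, 29 with scaling without ribosomal protein genes, 23 without the filter and 9 with library totals, beside 21.2%, 23.1%, 21.7%, 21.7%, 20.6% and 27.3% of all genes. No called member or pair reversed direction in these settings. The mean log2 A to B ratio of RPL20, with no test, went from 0.017 to -0.059 per kilobase of span. In deletion against wild type with aTC, 13 became 20 with DESeq2, 7 with library totals and 5 with only the 4 libraries compared, beside 13.6%, 17.6%, 15.1% and 6.25% of all genes. With DMSO, 0 became 2 with DESeq2 and 2 with only the 4 libraries compared, beside 0.219%, 2.14% and 4.42%. For aTC in the deletion, 0 became 3 with DESeq2 and 5 with only the 4 libraries compared, beside 0.506%, 6.8% and 11.9%. For aTC over both genotypes 1 became 3 with DESeq2, beside 1.31% and 4.04%. The exact permutation test, unadjusted, gave 3 pairs for aTC, beside 5.26% of the 57, against 0 by limma.

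Leaving out 1 library gave 1 to 29 members for the deletion averaged over treatments, 0 to 19 with aTC, 0 to 1 with DMSO, 0 to 2 for aTC in the deletion and 0 to 2 for aTC averaged over genotypes. Pairs with a changed ratio ranged from 0 to 6 for the deletion and from 0 to 4 for aTC. A fit with 1 library fewer has fewer degrees of freedom by construction. Of 312 member values with 1 library left out 141 stayed past the threshold and 171 did not, and of 247 under other settings 209 did and 38 did not.

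Replicate numbers showed no consistent pairing of the samples: replicate differences correlated between groups at -0.19 to 0.25. With a single replicate difference per group, this check cannot exclude a shared replicate batch. With the replicate block 22 members were called for the deletion, 11 with aTC, 0 with DMSO and 1 for aTC averaged over genotypes, and 5 pairs had a changed ratio for the deletion.

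Depth does not limit most members, but RPL22A, RPL33A and RPL36B had 363 to 873 reads per library, and 2 replicates per group set the precision of every change.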
